A study of Sargassum vulgare with 6 samples.

Results

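In apical tissue of the brown alga Sargassum vulgare, 194 transcripts were very abundant and stayed within a 3-fold range over 6 libraries. The libraries came from 2 sites off Ischia Island. Together these 194 transcripts held about as much of the measured signal as all other transcripts combined. The highest value was 2 or more times the lowest in 93 of the 194. They were chosen from the measured values themselves. FPKM counts sequenced fragments relative to the length of the transcript and the size of the library. A transcript was taken as detected where 3 or more of the 6 libraries gave it an FPKM of 1 or higher, and a component is the set of sequences that an assembler groups as forms of 1 gene, read here from the transcript name. The 194 belong to components with fewer than 3 detected transcripts, have a mean of at least 800 FPKM over the 6 libraries, and have a highest value under 3 times the lowest. They are 0.289% of the 67131 listed and 3.59% of the 5399 detected transcripts, and no component contributed more than 1 of them. Their level, their range over the 6 libraries and the share they hold follow in large part from this choice and are given as descriptions.

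The algae grew at Castello Aragonese, where natural carbon dioxide vents acidify the water, or at Lacco Ameno, the control site, and each of the 3 libraries per site was made from a pool of 3 thalli. Total RNA was extracted from the tips after visible epiphytes had been cleaned off. Pool and library are used alike below. Since each condition is a single place, the effect of the acidified water and that of anything else particular to either place cannot be told apart. The labels do not say how the pools relate to place or day within a site, so the spread between libraries is that between these pools.

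Sargassum species are canopy-forming brown algae that grow from apical cells, and their tips hold young dividing and photosynthesising tissue. Carbon dioxide vents lower the pH of the water and raise its dissolved inorganic carbon, the substrate of photosynthesis. In algal tissue the most abundant transcripts commonly include those for light-harvesting proteins, ribosomal proteins, translation factors and cytoskeletal proteins, while ribosomal and organelle RNA can also be abundant in libraries made from total RNA. Transcripts of similar level in all samples are of practical use as reference genes for normalization. Whether any of the 194 would serve in this way was not tested, and the rule allows any range under 3-fold. The deposited tables give identifiers only, with no gene name, function or sequence, so none of the 194 is assigned here to any of these classes, no marker could be used to check the tissue or residual epiphytes, and no sequence is shown.

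The summed FPKM of a library ranged from 750020 to 1048696, and the number of reads behind it is not known, so no counting interval can be given. The tested transcripts of each library held 99.1% to 99.5% of that sum. None of the 194 was listed at 0 in any library, and their lowest single value was 461 FPKM in acidified pool 2.

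The 194 transcripts held 51.4%, 52.7% and 50.5% of the summed FPKM in control pools 1, 2 and 3. In acidified pools 1, 2 and 3 they held 48.8%, 49.7% and 52.7%. The libraries of the sites overlapped, with a mean of 51.5% ± 1.11 in the control pools and 50.4% ± 2.08 in the acidified pools (SD, n = 3 each). The share moved less than that of the 68 transcripts that met the same criteria on level and component but whose highest value was 3 or more times the lowest. Those 68 held 20.8% ± 3.04 in the control pools and 23.9% ± 5.20 in the acidified pools (SD, n = 3 each), between 17.9% and 27.2% in single libraries. The rule set these groups apart by range, so this contrast describes the choice and is no test. In RNA of whole tissue, fewer cells of a type and less RNA per cell cannot be told apart.

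**Figure D1:**
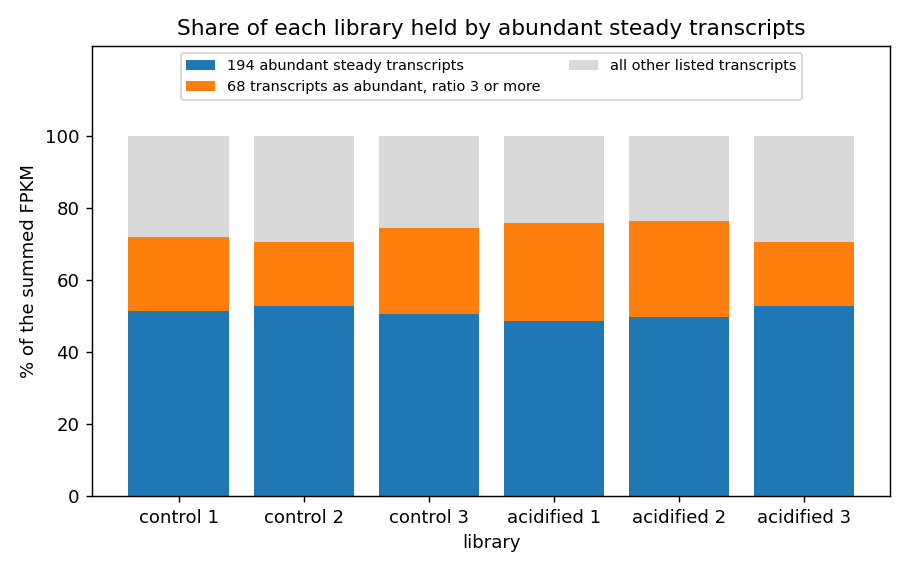
Stacked bars give the percentage of the summed FPKM of each library held by the 194 abundant transcripts with a range under 3-fold (blue, labelled steady), by the 68 equally abundant transcripts with a range of 3-fold or more (orange) and by all others (grey). The blue bars lie between 48.8% and 52.7% in all 6 libraries.

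The signal was unevenly spread among the 194. Their means ran from 801 to 16907 FPKM with a median of 1493 and quartiles of 1017 and 2567, and the 40 highest held slightly more of their summed mean (50.1%) than the other 154. The 18 with a mean of 5000 FPKM or more held 15.5% of all FPKM, the 50 from 2000 to 5000 held 18.0%, the 81 from 1000 to 2000 held 13.0%, and the 45 from 800 to 1000 held 4.60% (averages over the 6 libraries). In all 6 libraries 126 of the 194 were at 800 FPKM or more. Between 65 and 72 of them were among the 100 highest transcripts of any 1 library, 45 were so in all 6, and the lowest rank of any of them in any library was 430 of 67131. FPKM is scaled by transcript length, so these levels can be compared between transcripts, although an estimate of level has to divide the fragments that fit several similar sequences, for example copies of a gene that were assembled once per site.

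The assembly of origin is inferred here from the prefix of a transcript name, Sample_MAC for the acidified and Sample_MLA for the control site, which matches the library titles. The most abundant was Sample_MAC_c80780.graph_c0_seq1, a transcript of the acidified-site assembly and the single listed form of its component. It stood at 15477, 9165 and 13938 FPKM in control pools 1, 2 and 3, and at 21900, 23792 and 17168 FPKM in acidified pools 1, 2 and 3. All 3 acidified values lay above the control values, the means were 12860 ± 3291 and 20954 ± 3412 (SD, n = 3 each), and it ranked between 1 and 4 in every library. It held 1.92% of all FPKM on average.

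Sample_MAC_c83031.graph_c0_seq1 came next, also from the acidified-site assembly. Its values were 9718, 11374 and 12337 FPKM in the control pools and 21015, 22835 and 13536 FPKM in the acidified pools. Again the sites did not overlap, and the transcript ranked between 1 and 5 in every library. These were the 2 of the 194 that were among the 10 highest transcripts of all 6 libraries. Quantile normalization, which gives every library the same distribution of values, brought the log2 differences of the pair from 0.73 and 0.75 to 0.07 and 0.04. Its values depend on rank alone, and the ranks of both stayed between 1 and 5. It therefore cannot decide whether the pair differed in level between the sites.

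The third, Sample_MLA_c21460.graph_c1_seq1, came from the control-site assembly and leaned the other way. It was listed at 9686, 9624 and 11688 FPKM in the control pools and at 9381, 8913 and 6729 FPKM in the acidified pools. The sites lay next to each other without overlap, since the lowest control value of 9624 FPKM was just above the highest acidified value of 9381 FPKM. The fourth, Sample_MAC_c90079.graph_c0_seq1, had 7788, 6731 and 7384 FPKM in the control pools and 9565, 9632 and 6256 FPKM in the acidified pools. Its sites overlapped, because acidified pool 3 was the lowest of all 6.

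The fifth, Sample_MAC_c86523.graph_c0_seq1, had the widest range of the 10 highest, 2.65-fold. Its control values were 7164, 4026 and 5458 FPKM and its acidified values 10493, 10677 and 8702 FPKM, without overlap. The sixth, Sample_MAC_c41837.graph_c0_seq1, stood at 6964, 5865 and 7725 FPKM in the control pools and at 9414, 9487 and 6455 FPKM in the acidified pools. It shared its shape with the fourth: acidified pools 1 and 2 were above every control pool and acidified pool 3 was not.

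The seventh, Sample_MLA_c31640.graph_c0_seq2, was the only one of the 10 highest with a further listed form in its component, of which it held 91.5%. Its values were 6699, 3975 and 7045 FPKM in the control pools and 9224, 8373 and 6309 FPKM in the acidified pools, with overlap through acidified pool 3 and with control pool 2 the lowest. The ninth, Sample_MAC_c97466.graph_c0_seq1, ran at 6365, 5644 and 5866 FPKM in the control pools and at 8894, 7465 and 5753 FPKM in the acidified pools. Acidified library 3 was again within the control range. The tenth, Sample_MLA_c36645.graph_c0_seq2, had 9405, 5318 and 8015 FPKM in the control pools and 5434, 4069 and 4567 FPKM in the acidified pools, so that only control pool 2 fell among the acidified values. Quantile normalization turned the log2 differences of the fourth, sixth and ninth from 0.19, 0.29 and 0.29 to -0.33, -0.05 and -0.06. Rescaling to the same sum left them at 0.11, 0.20 and 0.20, and median ratio scaling at 0.16, 0.26 and 0.26.

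The eighth by level was the steadiest of all 194. Sample_MAC_c16405.graph_c0_seq1 was listed at 6374, 6499 and 6993 FPKM in the control pools and at 7602, 7040 and 7028 FPKM in the acidified pools, a highest value 1.19 times the lowest. The acidified values were all above the control values, by as little as 7028 against 6993 FPKM. The log2 difference was 0.13, with 0.04 after rescaling to the same sum and 0.10 with median ratio scaling. It turned to -0.23 under quantile normalization, whose values depend on rank alone. Of these scalings, only quantile normalization changed the sign.

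Next in steadiness was Sample_MLA_c14179.graph_c0_seq1, at 4837, 4625 and 5541 FPKM in the control pools and 4941, 5002 and 4928 FPKM in the acidified pools. Its ratio of highest to lowest was 1.20, and its 3 acidified values lay inside the control range with an SD of 39.7 FPKM. Sample_MAC_c80110.graph_c0_seq1 had 4990, 5224 and 5072 FPKM in the control pools, an SD of 119, and 6320, 5759 and 5130 FPKM in the acidified pools. Its ratio was 1.27, with overlap between the sites. Its log2 difference of 0.17 was 0.08 with the same sum, 0.14 with median ratio scaling and -0.01 under quantile normalization. All 3 of the steadiest transcripts were single listed forms of their components.

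**Figure D2:**
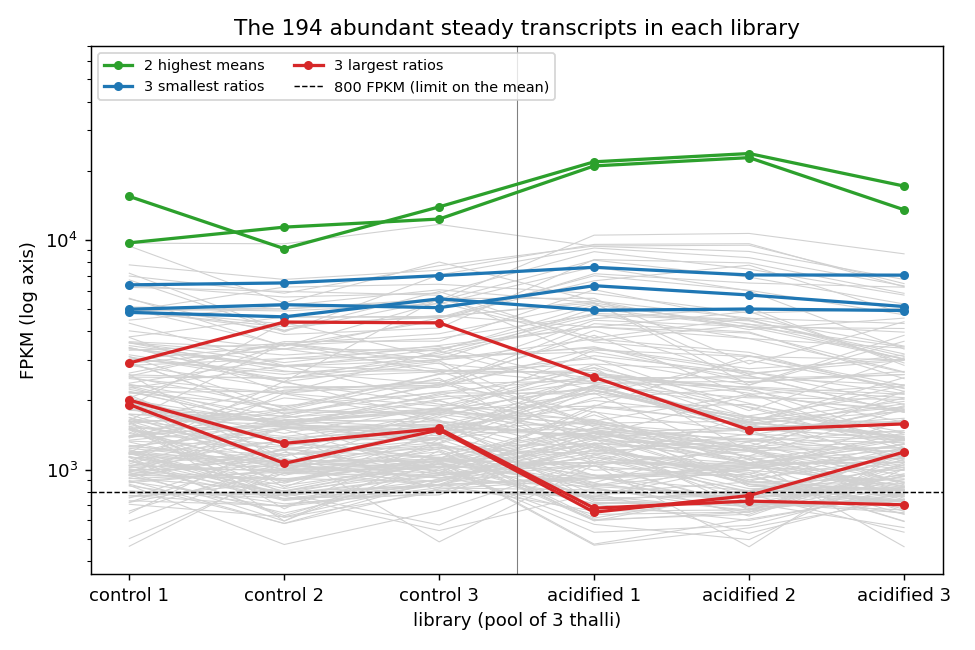
Each grey line is 1 of the 194 transcripts, plotted as FPKM on a log axis across the 3 control and 3 acidified pools; the vertical line separates the sites and the dashed line marks 800 FPKM. The 3 steadiest transcripts (blue, ratios of 1.19 to 1.27) run nearly level, the 2 most abundant (green) are higher in the acidified pools, and the 3 with the widest range (red, ratios of 2.94 to 2.96) have their lowest value at the acidified site.

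At the other end of the range stood 3 transcripts of the control-site assembly, all with their lowest values at the acidified site. Sample_MLA_c22714.graph_c0_seq1 had the largest ratio, 2.96, with 2008, 1300 and 1510 FPKM in the control pools and 679, 729 and 702 FPKM in the acidified pools. Its acidified values were tightly grouped and well below the control values. Sample_MLA_c31729.graph_c0_seq3, with a ratio of 2.95, had 2913, 4390 and 4355 FPKM in the control pools and 2521, 1490 and 1581 FPKM in the acidified pools, also without overlap. Sample_MLA_c39671.graph_c0_seq1, with a ratio of 2.94, had 1920, 1064 and 1488 FPKM in the control pools and 652, 771 and 1192 FPKM in the acidified pools. Here the sites overlapped between control pool 2 and acidified pool 3.

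Over all 194, the ratio of highest to lowest value had a median of 1.97 and quartiles of 1.63 and 2.40. It was under 1.5 for 23 transcripts, from 1.5 to under 2 for 78, and 2 or more for 93, of which 33 reached 2.5. The level of a transcript went with no steady trend in this ratio: its median was 1.89 for those with a mean of 5000 FPKM or more, then 1.84, 2.05 and 1.96 in the 3 lower classes of level. The 3-fold limit removed more at the top. Of the 30 transcripts with a mean of 5000 FPKM or more that met the component criterion, 18 (60.0%) stayed under it, compared with 80.6%, 75.7% and 71.4% in the lower classes.

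Values near the limits show how little separates the transcripts inside from those outside. The lowest mean inside was that of Sample_MLA_c30692.graph_c0_seq1, 801 FPKM, with 793, 782 and 856 FPKM in the control and 939, 701 and 733 FPKM in the acidified pools. Just outside was Sample_MLA_c37805.graph_c0_seq5, with a mean of 797 FPKM. The ratio of 2.96 was the highest inside, and Sample_MLA_c31509.graph_c0_seq1, with a ratio of 3.02 and a mean of 943 FPKM, was the nearest outside. Of the 68 equally abundant transcripts beyond the limit, 43 had a ratio under 5, 17 had one from 5 to under 10, and 8 had one of 10 or more. A further 18 transcripts at 800 FPKM or more belonged to components with 3 or more detected forms.

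**Figure D3:**
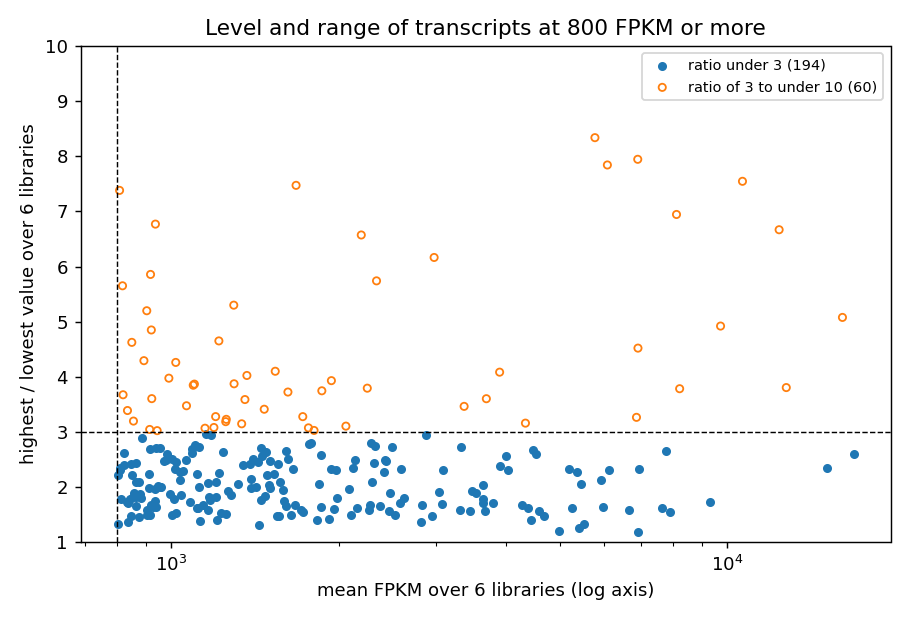
Each point is a transcript with a mean of at least 800 FPKM in a component with fewer than 3 detected forms; the horizontal axis is the mean over 6 libraries (log axis) and the vertical axis the highest value divided by the lowest, with dashed lines at the limits of 800 FPKM and 3. The 194 transcripts inside the limits (filled) border directly on the 60 with ratios from 3 to under 10 (open), and 8 further transcripts with larger ratios are beyond the axis.

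The 194 varied between pools of a site as well as between the sites. Within the control site the highest of the 3 values was a median of 1.37 times the lowest, within the acidified site 1.498 times, while the larger site mean was a median of 1.28 times the smaller. A range over 3 single libraries and a ratio of 2 means are not the same measure. The wider of the 2 within-site ranges was larger than the ratio of site means for 156 of the 194 (80.4%). It was so for 81.6% of the 4609 detected transcripts with no value of 0. Taking the wider of 2 ranges raises these counts. The site means were within 1.1-fold of each other for 31 transcripts and at least 1.5-fold apart for 45, of which 13 were higher in the acidified and 32 in the control pools. At least 2-fold apart were 4 transcripts, 1 of them higher in the acidified pools, and the largest ratio of site means was 2.28.

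On the log2(FPKM + 1) scale, the replicate SD of a transcript had a median of 0.24 in the control pools and 0.31 in the acidified pools. Over all 5399 detected transcripts these medians were 0.33 and 0.34. Over the 521 detected transcripts with means from 50 to under 800 FPKM, on which no limit of range was placed, they were 0.26 and 0.32. The difference between site means, acidified minus control, had a median of -0.01 over the 194, with quartiles of -0.42 and 0.29 and extremes of -1.17 and 1.07. The median over all detected transcripts was 0.02. The median over the 194 was between -0.09 and 0.04 under the scalings tried. The median absolute difference was 0.35 for the 194, 0.39 for all detected transcripts and 0.49 for those from 50 to under 800 FPKM. The rule capped this quantity for the 194, so no test of it is given.

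In 58 of the 194 the values of the sites did not overlap. All 3 acidified values were above all 3 control values in 22 (11.3%), compared with 14.9% of all detected transcripts, and all 3 control values were above in 36 (18.6%), compared with 14.2%. Other scalings gave 28 to 42 and 29 to 42, and quantile normalization, with 42 and 29, turned the order of the directions. The shares over all detected transcripts under those scalings are not given, so these counts show nothing particular to the 194. In limma's fit over all 5399 detected transcripts, 2 of the 194 passed an adjusted p under 0.05 as higher at the acidified site, compared with 4.11% of all transcripts tested. As lower passed 7, compared with 3.56%. Because the 3-fold limit over the same 6 libraries bounds the site difference, nothing is read from these shares. The count of higher calls was 2 without acidified pool 3, of which 1 was also called with all 6 libraries. It was 0 without any other single library. The count of lower calls was 7 without acidified pool 3, of which 5 were also called with all 6 libraries. It was 1 without control pool 2, a transcript also called with all 6. Without acidified pool 1 it was 1, a transcript not called lower with all 6. Without control pool 1 or 3 or acidified pool 2 the count of lower calls was 0. The shares of all tested transcripts called without a library are not given, so nothing particular to the 194 is read from these counts.

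The 2 transcripts called higher both came from the acidified-site assembly. Sample_MAC_c85455.graph_c0_seq1 had 1570, 1210 and 1745 FPKM in the control pools and 3315, 3106 and 3005 FPKM in the acidified pools, a log2 difference of 1.07 ± 0.22 (SE) and the largest rise among the 194. Sample_MAC_c42664.graph_c0_seq1 had 706, 622 and 886 FPKM in the control and 1342, 1253 and 1421 FPKM in the acidified pools, a log2 difference of 0.87 ± 0.22 (SE). In both the acidified values were the more tightly grouped on the log2 scale. Of the 7 called lower, 6 came from the control-site assembly. The largest fall was that of Sample_MLA_c22714.graph_c0_seq1, described above, with a log2 difference of -1.17 ± 0.23 (SE). The next was the 1 from the acidified-site assembly, Sample_MAC_c85620.graph_c0_seq2, with 6216, 5972 and 5745 FPKM in the control pools and 3027, 2332 and 3620 FPKM in the acidified pools, a log2 difference of -1.02 ± 0.23 (SE). Its 3 control values lay within 1.08-fold of each other.

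The assembly that a transcript came from, inferred from its name, was not part of the rule. Of the 194, 106 (54.6%) were from the control-site assembly and 88 (45.4%) from the acidified-site assembly, compared with 49.6% and 50.4% of all detected transcripts. The direction of the site difference went with it. Among the 88 of the acidified-site assembly, 61 had a higher mean log2 value at the acidified site, and 71 of the 106 of the control-site assembly had a lower one. The median log2 difference was 0.20 for the former and -0.27 for the latter, compared with 0.15 and -0.09 over all detected transcripts, with 0.40 and -0.29 over those from 50 to under 800 FPKM, and with 1.00 and -1.05 over the 68 equally abundant transcripts beyond the 3-fold limit. The same direction was thus found outside the 194. The rule set the 68 apart by their wider range, so their larger differences follow in large part from that choice. For the 194, the sign of both medians held under every scaling and pseudocount tried and without any single library. The median of those from the acidified-site assembly was lowest, at 0.06, without acidified pool 1. Among the 22 with all acidified values above, 13 (59.1%) were from the acidified-site assembly, compared with 65.2% over all detected transcripts. Among the 36 with all control values above, 30 (83.3%) were from the control-site assembly, compared with 67.9%.

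In shares of the summed FPKM, the 106 from the control-site assembly held 26.1% ± 0.57 in the control and 22.1% ± 1.99 in the acidified pools (SD, n = 3 each). The 88 from the acidified-site assembly held 25.5% ± 0.68 and 28.4% ± 0.45 (SD, n = 3 each). Neither pair of ranges overlapped, with 25.4% to 26.4% against 20.9% to 24.4% for the former and 25.1% to 26.3% against 27.9% to 28.8% for the latter. The total over both origins, given above, overlapped. The names do not link components between the assemblies and no sequence is given, so any copies of a gene assembled at both sites could not be matched.

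**Figure D4:**
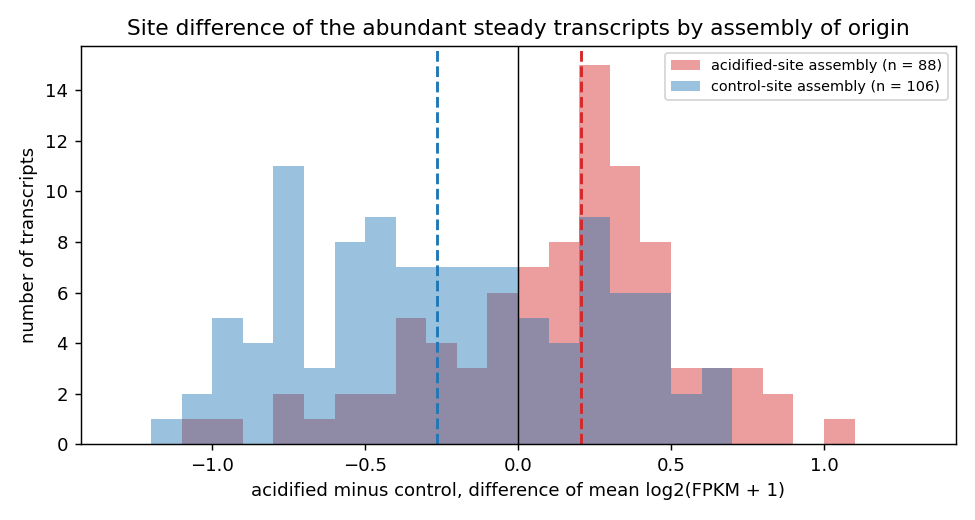
The histogram shows the difference of mean log2(FPKM + 1), acidified minus control, for the 88 transcripts of the acidified-site assembly (red) and the 106 of the control-site assembly (blue), in bins of 0.1, with dashed lines at the medians of 0.20 and -0.27. The distributions overlap widely, and both lie within -1.17 and 1.07.

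The most abundant of the 194 leaned to the acidified site. Of the 18 with a mean of 5000 FPKM or more, 15 had a higher mean log2 value there, with a median difference of 0.31, and 12 of the 18 were from the acidified-site assembly. Removing the per-library factor, rescaling to the same sum and median ratio scaling gave 14 or 15 of 18. Quantile normalization gave 9 with a median of 0.01, but its values depend on rank alone. A change in level that leaves ranks alike does not show in them. In the classes from 2000 to 5000, 1000 to 2000 and 800 to 1000 FPKM, the median differences were 0.02, -0.20 and -0.04, and 25 of 50, 36 of 81 and 20 of 45 transcripts were higher at the acidified site. The share of the summed FPKM held by the 10 most abundant of the 194 was 9.46% ± 0.47 in the control pools and 11.4% ± 0.85 in the acidified pools (SD, n = 3 each).

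The pools did not contribute equally to the range of the 194. Acidified library 1 held the highest of the 6 values for 82 transcripts and control pool 1 for 56, while control pool 2 and acidified pools 3 and 2 held the lowest for 53, 41 and 40. Control library 3 was least often at an extreme, with the highest value for 17 and the lowest for 6. For 76 transcripts the highest value was at the acidified and the lowest at the control site, for 76 the reverse held, and for 42 both extremes came from pools of the same site, 30 of them from the acidified site. The count for acidified pool 1 depended on the scaling: it was 66 with median ratio scaling and 30 to 36 with the same sum, quantile normalization or the per-library factor removed, whereas that for control pool 1 was 44 to 65. Acidified library 1 had the largest summed FPKM, 1048696. The 194 lay a median of 0.22 above their own means there on the log2 scale, compared with -0.12 to 0.07 in the other libraries. All detected transcripts also lay highest there, with a median of 0.10, compared with -0.05 to 0.05 in the other libraries.

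**Figure D5:**
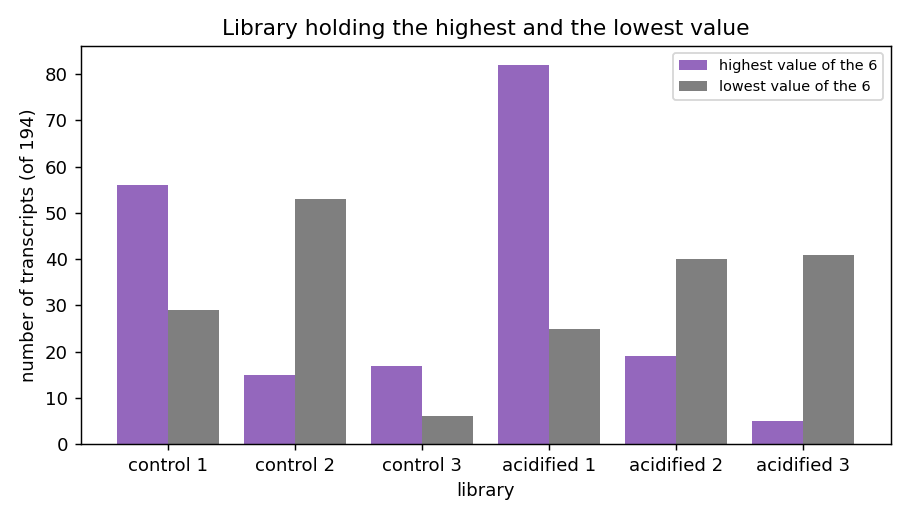
For each library, the purple bar counts the transcripts, of 194, whose highest value over the 6 libraries was there, and the grey bar those whose lowest value was there. Acidified library 1 and control pool 1 hold the highest value for 82 and 56 transcripts, and control pool 2 the lowest for 53.

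The differences among pools were shared by many of the 194. Control library 1 and acidified pool 1 stood furthest apart: across the 194 transcripts Spearman's rho of their FPKM was 0.62, while it was 0.82 to 0.92 for the 6 pairs of libraries of 1 site and 0.62 to 0.85 for the 9 pairs from different sites. These values are across transcripts that share libraries and a narrow range of levels, and they describe order only. In a principal component analysis of the 194, the first component held 51.6% of the variance, with weights of -0.57, -0.25 and -0.28 for control pools 1, 2 and 3 and of 0.57, 0.45 and 0.07 for acidified pools 1, 2 and 3. Acidified library 3 thus lay close to neither end. Over all detected transcripts the weights were -0.41, -0.39 and -0.40 and 0.53, 0.40 and 0.28. The deviations of the libraries from their site means across the 194 had Pearson's r of -0.60 for control pool 1 with acidified pool 1 and of 0.50 for control pool 1 with acidified pool 3, compared with -0.12 and 0.17 over all detected transcripts.

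The 194 were also sorted by the pool with the highest and the site with the lowest value. In 58 transcripts acidified pool 1 was the highest and a control pool the lowest; their median deviations from their own means were -0.20, -0.23 and -0.07 in control pools 1, 2 and 3 and 0.50, 0.12 and -0.10 in acidified pools 1, 2 and 3 on the log2 scale. In 46 transcripts control pool 1 was the highest and an acidified pool the lowest, with median deviations of 0.57, 0.01 and 0.23 and of -0.30, -0.48 and -0.11. The acidified-site assembly gave 36 of the former, and the control-site assembly 35 of the latter. These profiles were sorted by the values they describe, and the first depended on the scaling: it held 49 transcripts with median ratio scaling and 26 to 31 with the same sum, quantile normalization or the per-library factor removed, while the second held 39 to 56.

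Nearly all of the 194 were the sole form of their component. A single form was listed for 179 (92.3%), compared with 85.3% of the 68 equally abundant transcripts beyond the 3-fold limit, 72.7% of the detected transcripts from 50 to under 800 FPKM and 53.7% of all detected transcripts. The rule favours such components by its limit on detected forms, but it places none on listed forms. That limit also held for the 68 but was not applied to the sets of detected transcripts. Part of the contrast with those sets therefore follows from the rule. In 14 of the 179 the form carried a number above 1 in its name, so lower-numbered forms were not among the listed transcripts. Of the 194, 186 were the only detected transcript of their component and 8 had 1 other.

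Among the 15 with more than 1 listed form, 9 held over 99% of the summed FPKM of their component. The largest such component was that of Sample_MAC_c95577.graph_c0_seq96, with 26 listed forms, of which this transcript alone held 99.97% at a mean of 1174 FPKM. The lowest shares were those of Sample_MLA_c37983.graph_c0_seq1, with 49.7% of a component of 3 listed forms, and Sample_MAC_c96050.graph_c0_seq4, with 60.9% of a component of 2. These 3 were picked by their shares and component sizes after the values were seen. Putting component sums in place of the transcripts left the median log2 difference of the 194 at -0.01.

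To describe levels in libraries that had no part in the choice, the criteria were applied to each site alone. With the 3 control pools, 260 transcripts had a mean of at least 800 FPKM, a range under 3-fold and fewer than 3 detected forms in their component. At the acidified site 194 of these (74.6%) also averaged at least 800 FPKM, where 4.72% of all detected transcripts did so. Of the 260, 249 averaged at least 400 FPKM there. A single one was under 80 FPKM there, at 8.84 FPKM. With the 3 acidified pools 216 transcripts were chosen. Of these, 190 (88.0%) averaged at least 800 FPKM at the control site, where 5.28% of all detected transcripts did so. The lowest control mean among these 216 was 113 FPKM. Transcripts are not independent of each other, so no interval is given. The shares over all detected transcripts include many of low level, so the higher shares among abundant ones are a description and no test.

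A narrow range in the other pools was more common than the level itself. Of the 260 chosen at the control site 251 had a range under 3-fold among the acidified pools. Of the 216 chosen at the acidified site 215 did among the control pools. The share of all detected transcripts with such a range is not given, so these counts show nothing particular to the chosen transcripts. Over all 5399 detected transcripts the median replicate SD on the log2 scale was 0.33 in the control and 0.34 in the acidified pools. Both choices together shared 188 transcripts, which is 72.3% of the 260 and 87.0% of the 216. All 194 transcripts described here were chosen at 1 site or the other, 186 by the control pools, 172 by the acidified pools and 164 by both. That each was chosen somewhere follows almost wholly from the rule and is no result. A mean of at least 800 FPKM over 6 libraries puts at least 1 site mean at that level. A range under 3-fold over 6 libraries also holds within each site. The median log2 difference was -0.23 for those chosen at the control site and 0.17 for those chosen at the acidified site, and choosing by level at 1 site favours transcripts that are higher there.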

How the data were processed

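RNA from 6 pools of Sargassum vulgare tips was sequenced, and Bowtie2 and RSEM 1.1.21 served in the authors' processing, per the submitters' processing notes. Not given in the sources used here are the assembler, settings, annotation and filters. The deposited values are FPKM, in 1 table per site with the same 67131 transcripts, joined here by identifier; sites follow the location labels and replicate numbers the titles. Values under 10 FPKM were whole multiples of 1 step per library (0.00886 to 0.0116, within 0.0006), and the 6 steps divided by 0.01 had a product of 1, the form of values rounded and then multiplied by 1 factor per library; no label records this. Read depth is not known.

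All detected transcripts (FPKM of at least 1 in at least 3 libraries) were fitted with limma 3.58.1 in R 4.3.3 on log2(FPKM + 1). The fit set acidified against control, with variance trend and robust fitting, two-sided and Benjamini-Hochberg adjusted. A check on simulated data drew values independently from the fit's own means and variances. It therefore does not cover deviations shared by many transcripts. Differences on the log2(FPKM + 1) scale understate changes of low transcripts. Other steps used Python 3.11.15. The 194 transcripts, the criteria and the comparisons were chosen with earlier results of these data known. Named transcripts are the 10 highest means, the 3 smallest and 3 largest ratios, those next to the limits, and the 2 largest called changes in each direction; exceptions are stated.

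Alternatives were other limits, pseudocounts of 0.1 and 5, other filters, same-sum, median ratio and quantile scaling, removal of the per-library factor, a replicate block, leaving out each library, a further limit of a 2-fold change, and limma with neither trend nor robust fitting. Comparisons by assembly of origin, by highest library and of overlap under the scalings, component sums, and leaving out libraries when choosing at 1 site were added after the data were seen.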

Additional observations from a re-analysis of the deposited data

How the results depend on the processing

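The number of chosen transcripts was 186 to 205 under the scalings, 193 to 212 without 1 library and 149 to 277 with other limits on level, but 101 with a range under 2-fold; with a limit of 4-fold it was 227. The share of summed FPKM they held was 50.6% to 51.4% without 1 library, and their median log2 difference -0.17 to 0.08. Calls among the 194 were few and unstable: leaving out 1 library gave 0 to 2 higher and 0 to 7 lower. Higher calls were 1 with a pseudocount of 0.1, limma without trend or robust fitting, the per-library factor removed, the same sum, median ratio scaling or a fold of at least 2, and 0 without a filter on low values. Lower calls were 3 with a pseudocount of 0.1 or a fold of at least 2, 1 with limma without trend or robust fitting or with quantile normalization, 13 with a mean of at least 5 FPKM and 0 without a filter. The shares of all transcripts called under these alternatives are not given. Same-numbered libraries showed no pairing over all detected transcripts (deviations correlated at -0.12, 0.02 and -0.12), and a replicate block in the fit left 0 higher and 0 lower calls. Of transcripts chosen at the control site 83.1% passed the level at the other site with a mean of at least 500 FPKM, and 71.2% to 76.5% without 1 library. Of those chosen at the acidified site 81.4% to 89.6% did so without 1 library. Among the 19 named transcripts, scalings moved the log2 difference by a replicate SD or more in 10 of 209 values, 9 of them with quantile normalization. Leaving out 1 of the 3 libraries of a site cannot move a log2 difference that far. That it never did so therefore says nothing about stability. The sign changed in 9 of the 209 values, in 7 named transcripts: 6 times under quantile normalization and 3 times without 1 library, in none of those called. For values with no counts behind them, depth sets no limit that can be stated. The cause of these changes was not tested.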
